A study of Rattus norvegicus with 16 samples.

Results

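Plasma protein genes of the liver were followed across 16 arrays, all labelled as rat muscle satellite cell cultures. The set held 50 genes named by symbol, and a probe set counted as a member where the array annotation gave it exactly 1 of these symbols. That rule found 53 probe sets for 45 genes, out of 14217 genes with such a probe set. Of the other 5, Tf, Cfb, C2 and Kng1 lay on probe sets that carry several symbols, and F7 is named only. No minimum of signal was set for membership.

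Per the labels, the cells were levator ani satellite cells at passage 5, muscle stem cells from a pelvic muscle of the rat that depends on androgens. They were given vehicle (0.2% DMSO) or 10 nM of NARA, a nonsteroidal agonist of the androgen receptor, for 4 h or 48 h, with 4 arrays for each of the 4 groups. All groups had their growth medium changed to one with 10% charcoal-stripped serum, which lacks most steroids. The labels call the samples biological replicates but name no separate cultures or animals, and p-values cover only the spread between samples, possibly a technical one. The cells of a culture were measured in bulk, so fewer cells of a type and less RNA per cell cannot be told apart.

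Values are MAS5 signals, the brightness of a probe set after the array's mismatch probes are taken into account, scaled by the authors to the same trimmed mean on every array. Differences are of log2(signal + 50), a scale that understates the change of dim probe sets. A gene with more than 1 probe set is given by the brightest over the 16 arrays unless another is named. Probe sets differ in how brightly they bind, so signals of different genes were not ranked against each other.

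Hepatocytes secrete most proteins of blood plasma. They include carriers such as albumin, the apolipoproteins of lipoprotein particles, clotting factors that circulate as inactive precursors, the complement cascade that marks microbes for removal, and inhibitors that hold the proteases of both cascades in check. In liver these genes share regulators of the HNF1, HNF4, FOXA and C/EBP families that bind near their start sites. Cells of muscle and connective tissue are known to make a few of these proteins locally, among them complement C1s and tissue factor (F3).

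The libraries labelled NARA 4 h replicates 1 and 4 stood apart from the rest before any result is read. Across probe sets they correlated with each other at 0.894 and with the other 14 arrays at 0.645 to 0.673, against 0.930 to 0.956 among the 13 arrays the authors kept. The authors left out these 2 arrays and vehicle 48 h replicate 1 for low correlation and their place in a principal component plot, as the series' design text states. Vehicle 48 h replicate 1 correlated with the 13 at 0.922 to 0.933. Since the 2 arrays were set apart on their values, all comparisons with them are given as descriptions with no test.

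Promoter windows of 4 members are shown. All 4 hold the motif marked below, which only 9 of the 33 genes with a window had, so they are not typical of the set. The 4 genes sit on different chromosomes and were higher in the same 2 arrays, as was every gene with a window. RefSeq windows (build GRCr8) running from 250 bases before to 50 bases after the start site were at hand for 33 of the 45 genes, as 37 windows. The stretches printed are the 250 bases before the start, read 5′ to 3′ on the gene's strand. Capitals mark GTTAAT or its reverse complement ATTAAC, the 6-base core of elements bound by HNF1. They cover albumin (Alb, chr14:17906980-17907229, minus strand), the fibrinogen beta chain (Fgb, chr2:170700876-170701125, minus strand), plasminogen (Plg, chr1:50915407-50915656, minus strand) and complement C5 (chr3:38759469-38759718, minus strand).
Alb: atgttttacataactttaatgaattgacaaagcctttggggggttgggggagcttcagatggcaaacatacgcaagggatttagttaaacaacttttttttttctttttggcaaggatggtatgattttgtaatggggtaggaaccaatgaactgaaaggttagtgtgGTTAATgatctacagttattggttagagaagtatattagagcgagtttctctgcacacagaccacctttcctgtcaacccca
Fgb: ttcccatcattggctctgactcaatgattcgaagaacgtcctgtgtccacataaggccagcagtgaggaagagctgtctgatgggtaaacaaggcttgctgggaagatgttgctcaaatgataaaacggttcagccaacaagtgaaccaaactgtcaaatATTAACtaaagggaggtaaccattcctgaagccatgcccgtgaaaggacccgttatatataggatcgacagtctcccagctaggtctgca
Plg: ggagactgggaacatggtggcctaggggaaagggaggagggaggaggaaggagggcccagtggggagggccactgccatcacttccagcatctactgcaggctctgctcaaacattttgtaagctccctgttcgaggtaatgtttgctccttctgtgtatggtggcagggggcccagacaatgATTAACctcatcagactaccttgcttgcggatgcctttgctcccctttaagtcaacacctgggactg
C5: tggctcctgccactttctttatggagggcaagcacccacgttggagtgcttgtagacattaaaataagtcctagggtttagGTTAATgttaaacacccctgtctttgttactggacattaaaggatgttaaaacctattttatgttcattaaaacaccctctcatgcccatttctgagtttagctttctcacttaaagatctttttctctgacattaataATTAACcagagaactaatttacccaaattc

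Counted from the start site, the first capital base lies at -82 in Alb, -90 in Fgb and -67 in Plg. C5 holds 2 such cores, at -169 and -30. Searched on both strands, GTTAAT was found in 11 of the 37 windows (29.73%), in Alb, Apoc1, C5, F2, Fga, Fgb, Itih1, Plg and Proc, against 7.45% of all 33469 windows in the table. The C/EBP motif TTGCNNAA was in 13 windows (35.14%) against 10.6%, with Ahsg, C3, C6, Cp, F9, Hpx, Itih4, Rbp4 and Serpinc1 beside Alb, Fga and Fgb. The FOXA core TGTTTGC was in 4 windows (10.81%), those of Ahsg, Alb, Ambp and Plg, against 4.88%, and the TATA box TATAAA in 7 (18.92%) against 14.22%. Matches of different motifs overlapped in 0 of the 37 windows. A match is a run of letters and not a shown binding site, and all 33 genes with a window were among those higher in the 2 arrays, so the windows offer no contrast within the set.

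In the 2 arrays 42 of the 45 genes were higher than in every one of the other 14, against a background of 21.5% of all 14217 genes. F3 was lower than in all 14, as were 25.8% of all genes, and C1s and A2m overlapped with the 14. By probe set, 48 of 53 were higher (background 20.2%), 1 was lower (background 18.6%) and 4 overlapped. The median difference of the 45 genes was 8.62 on the log2 scale, with a range of -5.44 to 10.76. Over all genes the median was 0.02, and the 5th to 95th percentiles ran from -2.39 to 2.69. A difference of at least 8 was found for 29 of the 45 genes and for 0.521% of all genes, 74 in number, so that the set made up 39.2% of them. Quantile normalization or centring each array on its median moved the median of all probe sets from 0.16 to -0.01 or -0.11, and the direction of F3 did not change.

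**Figure D1:**
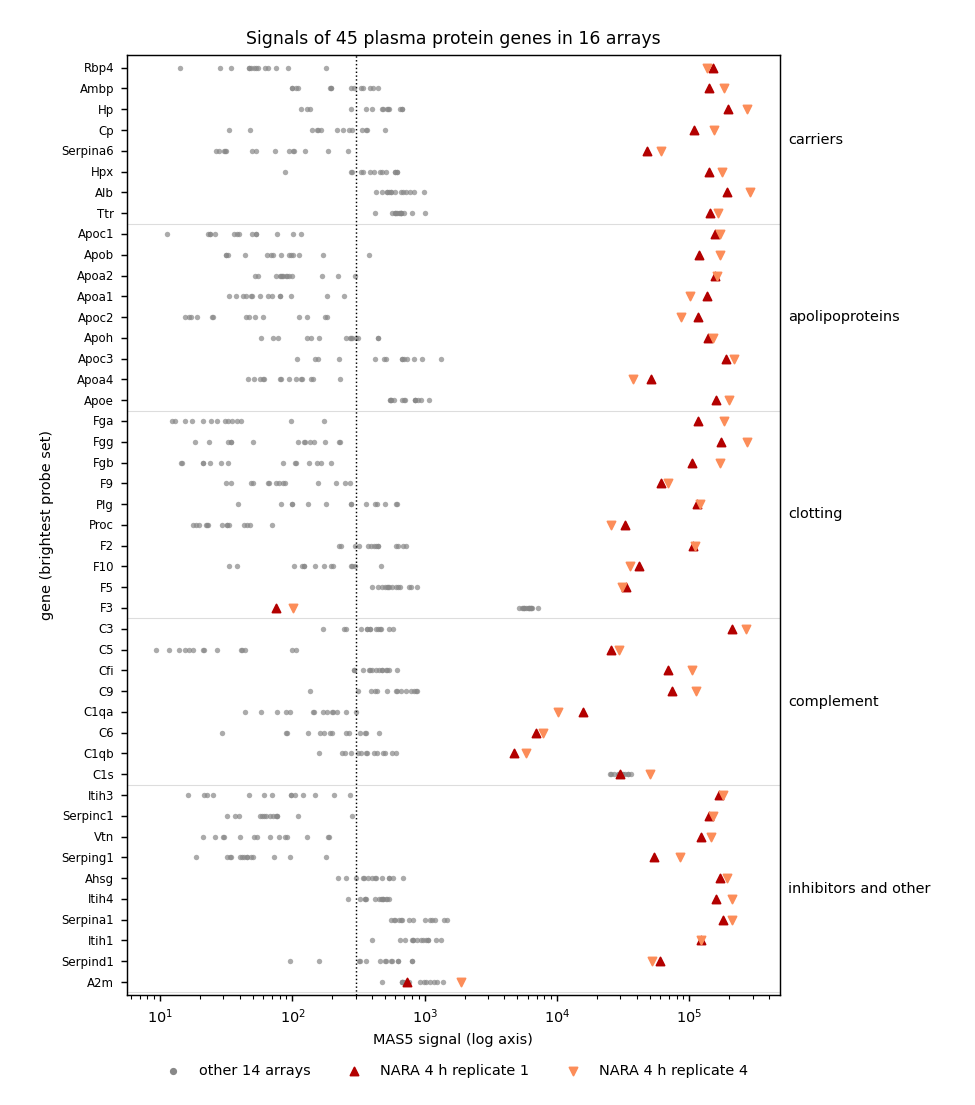
Signal (log axis) of the brightest probe set of each of the 45 genes, by role, in NARA 4 h replicate 1 (upward triangles), NARA 4 h replicate 4 (downward triangles) and the other 14 arrays (grey points); the dotted line marks a signal of 300. Triangles lie right of all grey points for 42 genes, left of them for F3, and among or beside them for C1s and A2m.

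The signals of those 42 genes together came to 4694310 in replicate 1 and 5619250 in replicate 4, which was 6.10% and 7.27% of all signal on the array. In the other 14 arrays they came to 11237 to 13979, or 0.0158% to 0.0193%. All 42 reached 1000 in each of the 2 arrays, whereas 0 to 3 of them did in any other array. Vehicle 48 h replicate 1, the third array left out by the authors, gave 13552 and lay within the range of the 14.

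Apolipoproteins, which build and steer lipoprotein particles, were higher in both arrays in 9 of 9 genes, with a median difference of 9.90 (7.85 to 10.76). Apoc1, a small exchangeable apolipoprotein, differed by 10.76, a value that depends on the offset since the gene was dim in the other arrays. Its signal was 155105 and 170502 in replicates 1 and 4, against a lowest of 11.2, a median of 38.9 and a highest of 117 in the other 14. Apoa1, the main protein of high-density lipoprotein, read 135653 and 100454 against 33.3, 60.9 and 245. Apob, the scaffold of low-density and very-low-density lipoprotein, read 117564 and 169053 against 31.3, 76.7 and 379. None of the 14 came near the 2 arrays for these genes. Apoa2, the second protein of high-density lipoprotein, differed by 10.02. Apoe, the ligand for clearance of remnant particles, differed least of the 9, by 7.85. It read 158142 and 198306 against 545 to 1073. A second Apoe probe set (1371288_at) read 19.7 and 34.6 in the 2 arrays and 11.4 to 46.1 in the 14, so it did not follow the first. Its difference of 0.01 turned to -0.16 under quantile normalization and -0.26 under median centring.

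Carriers of hormones, vitamins, copper and haem were higher in 8 of 8 genes, with a median of 8.89 (7.78 to 10.39). Alb, the most abundant plasma protein, read 191486 and 288154, against a lowest of 431, a median of 576 and a highest of 980 in the 14. A second Alb probe set read 181860 and 248994 against 68.6, 117 and 334. Both put the 2 arrays far above the rest, while the level they give in the other arrays differs between them. Rbp4, the carrier of retinol, differed by 10.39, and Ttr, which carries thyroxine and binds Rbp4, by 7.78. Hp, which captures free haemoglobin, read 195712 and 269929 against 115 to 677. Hpx, the haem scavenger, read 141633 and 176287 against 87.3 to 621. Ambp, the precursor of alpha-1-microglobulin and bikunin, and Serpina6, the carrier of glucocorticoids, lay 9.19 and 8.79 higher.

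Cp, the copper-carrying ferroxidase, had 3 probe sets that differed in size of change. 1368420_at read 107427 and 153765 against 33.2 to 497. 1368418_a_at read 43107 and 88688 against 614 to 1741, and 1368419_at read 3513 and 3586 against 200.2 to 797. All 3 were higher in both arrays, with differences of 5.61 and 2.82 for the latter.

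Clotting genes were higher in 9 of 10, with a median of 8.57. The chains of fibrinogen, the precursor of the clot, were among the largest differences of the set. Fga, the alpha chain, differed by 10.74, Fgg, the gamma chain, by 10.63 and Fgb, the beta chain, by 10.19. Fgg read 174209 and 274301, against a lowest of 18.2, a median of 116 and a highest of 230.0. Further Fgb probe sets followed less or not at all. 1371234_at read 727 and 1615 against 37.5 to 543, and 1388266_at read 257 and 189 against 8.67 to 346, within the range of the 14. The second Fga probe set (1371258_at) read 38427 and 35846 against 38.6 to 568.

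F2, the precursor of thrombin, read 106672 and 109945 against 224, 419 and 723. F9 and F10, vitamin K-dependent proteases of the cascade, differed by 8.83 and 7.52, and Proc, the precursor of the anticoagulant protease activated protein C, by 8.46. Plg, the precursor of the clot-dissolving protease plasmin, read 114226 and 119204 against 38.7, 277 and 615. F5, the cofactor that speeds thrombin formation, read 32905 and 31171 against 398, 550.0 and 868, a difference of 5.68.

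F3 went the other way. It encodes tissue factor, the membrane receptor that starts clotting outside the vessel and is made by many cells of connective tissue. Its signal was 75.6 and 102 in replicates 1 and 4, against a lowest of 5138, a median of 6052 and a highest of 7206 in the 14, a difference of -5.44. The 2 ranges were far apart, as for its neighbours in the cascade but with the order turned.

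Complement genes were higher in 7 of 8, with a median of 6.67 (0.36 to 9.13), the lowest median of the 5 roles. C3, on which all routes of activation meet, read 211189 and 266438 against 169, 387 and 579. C5 and C9, components of the membrane attack complex, differed by 8.41 and 7.28, and Cfi, the protease that inactivates C3b, by 7.47. C6, another attack complex component, read 6943 and 7860 against 29.4 to 449. C1qa and C1qb, chains of the recognition molecule C1q that macrophages make, read 15750 and 10191, and 4750 and 5832, against 44.1 to 301 and 159 to 611. C1qb had the smallest difference among the 42 genes, 3.70. C1s, the protease of the C1 complex, read 30025 and 49963 against a lowest of 25265, a median of 29992 and a highest of 35962. Replicate 1 thus lay among the other arrays (-0.01 from their mean) and replicate 4 above them (0.72).

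Inhibitors and other plasma proteins were higher in 9 of 10 genes, with a median of 8.62. Serpina1, the inhibitor of neutrophil elastase, read 178224 and 207926 against 555, 787 and 1467. Serpinc1 (antithrombin) and Serpind1 (heparin cofactor 2), both inhibitors of thrombin, differed by 10.23 and 6.87, and Serping1, which blocks C1r and C1s, by 9.40. Itih1, Itih3 and Itih4, heavy chains of inter-alpha-trypsin inhibitors, differed by 7.06, 10.40 and 8.60. Vtn, an adhesion protein that also binds the attack complex, differed by 10.15 and Ahsg (fetuin-A), an inhibitor of calcification, by 8.65. A2m, a broad protease trap and an acute-phase protein of the rat, read 730 and 1889 against a lowest of 475, a median of 844 and a highest of 1381. Replicate 1 lay within the range of the 14 (-0.22) and replicate 4 above it (1.10).

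**Figure D2:**
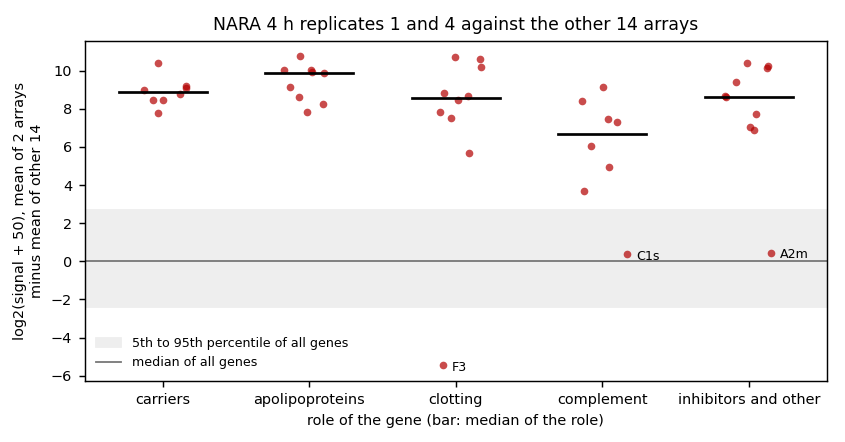
Difference between the mean of NARA 4 h replicates 1 and 4 and the mean of the other 14 arrays, on the log2(signal + 50) scale, with 1 point per gene and a bar at the median of each role. The grey band spans the 5th to 95th percentiles of all genes (-2.39 to 2.69); C1s and A2m lie inside it, F3 lies below it at -5.44, and the other 42 genes lie above it.

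By place in the genome, 20 of the 50 genes form 8 clusters in the RefSeq gene order of GRCr8, with no more than 4 genes between neighbours. They include Apoa1, Apoc3 and Apoa4, the run of Apoc2, Apoc1 and Apoe, the 3 fibrinogen genes, and Itih1, Itih3 and Itih4. Each measured gene of these clusters was higher in both arrays. Differences of neighbours were close for Fgg (10.63), Fga (10.74) and Fgb (10.19) and less so for Apoc1 (10.76) and Apoe (7.85). The closeness holds for the brightest probe sets only. Others gave 6.51 for Fga (1371258_at) and 2.17 (1371234_at) and 0.61 (1388266_at) for Fgb. In the 2 arrays Apoc1 read 155105 and 170502 and Apoe 158142 and 198306. Their medians in the other 14 were 38.9 and 701.

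Other lists moved in the same 2 arrays. Of 52 further plasma protein genes measured, 50 were higher than in all 14, with a median of 6.06, Pltp was lower and C1r overlapped. Of 31 genes for liver enzymes and transporters 31 were higher, with a median of 7.38 (Cps1, the first enzyme of the urea cycle, read 133931 and 134719 against 54.7 to 412). Of 17 liver transcription factors 16 were higher, with a median of 3.54. Hnf4a, a regulator of many plasma protein genes, read 64179 and 48437 against 41.5 to 469. Markers of macrophages (12 of 13 higher, median 2.95) and of liver endothelium (7 of 8 higher, median 3.78) were higher too. Of 5 red cell genes 2 were higher, with a median of -0.16; Hbb read 32090 and 21952 against 172 to 1383, while Slc4a1 and Ahsp lay at -1.74 and -1.67. In the lists for kidney 0 of 8, for intestine 1 of 8 and for pancreas 2 of 9 genes were higher, against the 21.5% of all genes.

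Markers of fibroblasts were lower in 17 of 18 genes, with a median of -4.13. Col1a1, the main chain of type I collagen, read 1342 and 942 against 59015 to 95818. Among 13 markers of satellite cells and myoblasts measured, 4 were higher and 1 lower in the 2 arrays, with a median of 0.63. Over all genes 21.5% were higher and 25.8% lower. Cell markers were also set against the label of the other 14 arrays. All 18 fibroblast markers reached 1000 in each of the 14. Of the 13 markers of satellite cells and myoblasts, 7 reached 300 and 1 reached 1000 in each, against 64.5% and 43.7% of all genes. Among 25 genes of unrelated tissues, 6 reached 300 and 0 reached 1000 in each. Sdc4, a surface proteoglycan of satellite cells, read 5194 to 12258, Myog, the regulator of differentiation, 701 to 1929, Cdh15 (M-cadherin) 799 to 1535 and Myod1, the myogenic regulator of activated satellite cells, 12.1 to 270.5. Pax7 and Myf5 had no probe set with 1 symbol. The part that other cell types have in the 2 arrays was not tested.

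The 2 arrays differed from each other far less than from the rest. Replicate 4 minus replicate 1 had a median of 0.22 over the 45 genes (-0.63 to 1.31), beside a median of 0.13 over all probe sets with 5th to 95th percentiles of -1.36 to 1.76. The signal was higher in replicate 4 for 36 of 45 genes, and 35 lay within 1.5-fold. No count over all genes stands beside these, and the median signal of the whole array was itself higher in replicate 4 (786 against 651). The 9 genes at least 1.5-fold higher in replicate 4 were A2m (1.31), C1s (0.73), Fgb (0.71), Fgg (0.65), Serping1 (0.64), Fga (0.63), C9 (0.60), Cfi (0.60) and Alb (0.59), and C1qa was lower (-0.63). The other probe sets of Alb (1367556_s_at) and Fga (1371258_at) gave 0.45 and -0.10. Of the other Fgb probe sets, 1371234_at gave 1.10, and 1388266_at, within the range of the 14 arrays, gave -0.36. Hp, C3 and Serpina1 lay at 0.46, 0.34 and 0.22. Hamp, the iron hormone hepcidin and no member of the set, read 5921 in replicate 1 and 49034 in replicate 4. Apoa4, Apoa1 and Apoc2 lay at -0.47, -0.43 and -0.42. There is 1 array on each side, so these differences have no replicate check.

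**Figure D3:**
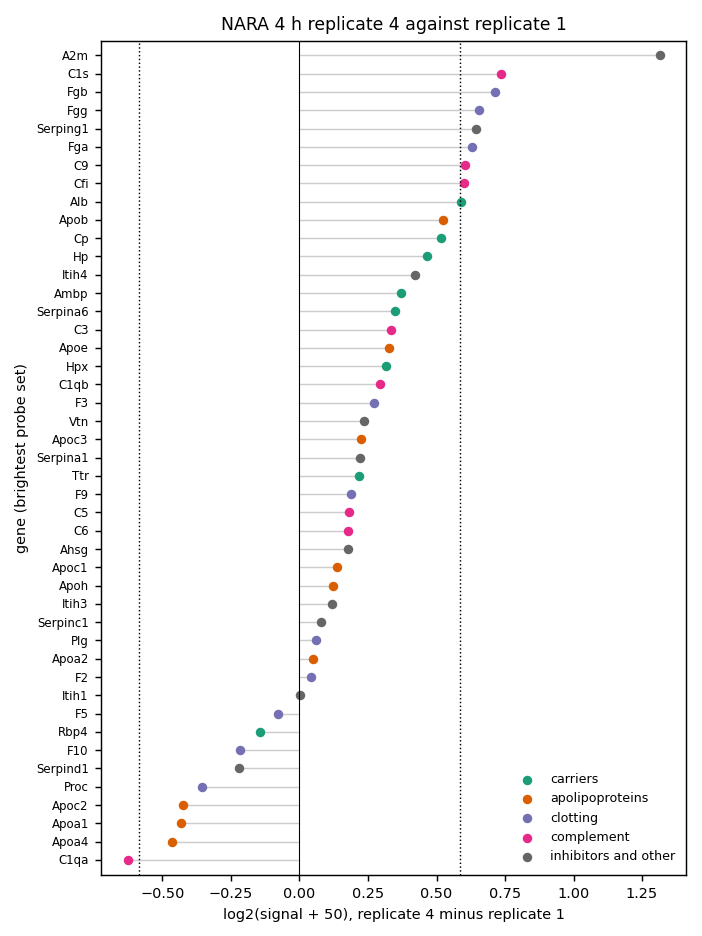
Difference between NARA 4 h replicate 4 and replicate 1 on the log2(signal + 50) scale for each of the 45 genes, coloured by role; dotted lines mark a 1.5-fold difference either way. A2m stands at 1.31, the 3 fibrinogen chains lie between 0.63 and 0.71, and C1qa is lowest at -0.63.

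The next question was which of the genes the cultured cells also express, read in the 14 arrays without the 2. Here the brightest probe set over the 13 arrays stood for a gene, which was another one for Cp, Apob, Fga and Fgb. A signal of at least 300 in each of the 14 was reached by 10 of the 45 genes (22.2%), against 64.5% of all genes. The same level was reached by 6 of 25 genes (24.0%) picked as products of unrelated tissues such as retina, pituitary and nose, among them Opn1sw, Cga and Omp. A signal of 300 was therefore not taken to show expression. At 1000 in each array, 2 of the 45 genes passed, F3 and C1s, against 43.7% of all genes and 0 of the 25. The same 2 passed at 2000.

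C1s, at 25265 to 35962, and F3, at 5138 to 7206, were thus well above the level of unrelated genes in every one of the 14 arrays. At 500, the next to pass were Cp (1368418_a_at, 614 to 1741), Serpina1 (555 to 1467) and Apoe (545 to 1073), where 2 of the 25 unrelated genes, Omp and Snap25, passed as well. A2m (475 to 1381), Alb (431 to 980), Ttr (420 to 1010), Itih1 (398 to 1321) and F5 (398 to 868) completed the 10. Of the 52 further plasma protein genes measured, 6 reached 1000 in each of the 14, against 43.7% of all genes. They were C1r (20948 to 31803), the partner of C1s in the C1 complex, Serpinf1 (58318 to 74706), Clu (22303 to 36225), Pltp (4274 to 8256), Pros1 (4475 to 6889) and Masp1 (1127 to 3600). Detection calls were not used here.

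**Figure D4:**
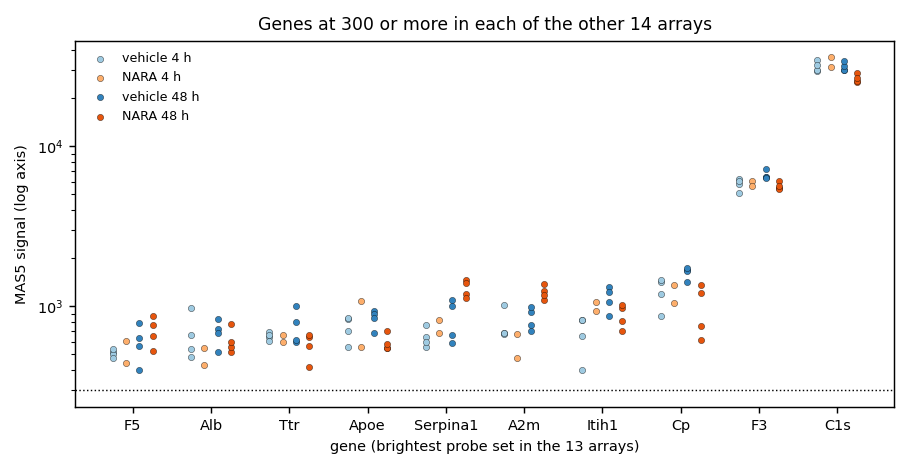
Signal (log axis) in each of the other 14 arrays, by group, for the 10 genes at 300 or more (dotted line) in every one of them; NARA 4 h holds 2 arrays and the other groups 4. F3 lies between 5138 and 7206 and C1s between 25265 and 35962, and the other 8 genes lie between 398 and 1741.

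The effect of NARA and of time on these genes was read in the 13 arrays the authors kept (vehicle 4 h 4, NARA 4 h 2, vehicle 48 h 3, NARA 48 h 4). A mean signal of at least 300 left 24 of the 53 probe sets, for 23 of the 45 genes, and the p-values of limma were adjusted (Benjamini-Hochberg) over the 20904 probe sets that passed this minimum. NARA against vehicle at 4 h gave 0 member calls at a threshold of 0.05, with 4 at an unadjusted p under 0.05 (all probe sets: 0.0% called, 992 under 0.05 unadjusted). At 48 h it gave 0 member calls with 7 unadjusted (all: 2.8%, 3347 unadjusted). The 48 h against 4 h comparison in vehicle gave 0 member calls with 2 unadjusted (all: 0.0%, 1536 unadjusted), and the difference between the NARA effects at 48 h and 4 h gave 0 with 5 unadjusted (all: 0.124%, 1881 unadjusted). The 48 h against 4 h comparison in NARA called 1 member, A2m (all: 0.785%, 2428 unadjusted), with 6 unadjusted. The median change of the 24 probe sets was 0.02 for NARA at 4 h, -0.15 for NARA at 48 h, 0.11 for time in vehicle and -0.06 for time in NARA, while over all probe sets each median lay within 0.01 of 0.

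A2m read 671 and 475 in NARA 4 h and 1095, 1247, 1381 and 1171 in NARA 48 h. The groups did not overlap, and the change was 1.04 ± 0.20 (SE) on the log2 scale, with an adjusted p of 0.0428 in limma. In vehicle the 4 h arrays read 678, 1025, 675 and 681 and the kept 48 h arrays 992, 762 and 704, a change of 0.10 with an adjusted p of 0.934 in limma. The difference between NARA's effects at 48 h and 4 h was 0.94 ± 0.27 (SE), with an adjusted p of 0.321 in limma, so the rise with time was not shown to differ between NARA and vehicle. NARA against vehicle at 48 h was 0.56 ± 0.18 (SE), with an adjusted p of 0.139 in limma. The call for A2m over time in NARA was lost on leaving out any 1 array other than vehicle 4 h replicate 2 or vehicle 48 h replicate 2. The change then lay between 0.82 and 1.27 and the adjusted p from limma between 0.0545 and 0.288, the highest without NARA 4 h replicate 3.

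Serpina1 read 1467, 1199, 1397 and 1129 in NARA 48 h and 1096, 586 and 660.0 in vehicle 48 h. Each NARA array was higher than each vehicle array, and the difference was 0.74 ± 0.19 (SE), with an adjusted p of 0.0728 in limma. Without vehicle 48 h replicate 2 it was 1.00 with an adjusted p of 0.0108 in limma. Serpina1 was called in this comparison in only 2 of 23 alternatives, with changes between 0.57 and 1.00. Vehicle 48 h replicate 1, left out by the authors, read 1009. Cp differed between NARA and vehicle at 48 h by -0.74 ± 0.26 (SE) and -1.01 ± 0.38 (SE) on the 2 probe sets tested, with adjusted p of 0.178 and 0.207 in limma. On 1368418_a_at it read 614, 753, 1208 and 1355 in NARA 48 h and 1410, 1654 and 1741 in vehicle 48 h, with no overlap.

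C1s and F3, the members with clear signal in the cells, differed by little at 48 h. C1s read 31965 ± 1977 (SD, n = 3) in vehicle and 26577 ± 1543 (SD, n = 4) after NARA, and the arrays did not overlap. The change was -0.27 ± 0.10 (SE) with an adjusted p of 0.223 in limma. F3 was 5633 ± 279 (SD, n = 4) against 6635 ± 497 (SD, n = 3), a change of -0.23 ± 0.10 (SE) with an adjusted p of 0.285 in limma. At 4 h they differed by 0.09 and 0.01.

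**Figure D5:**
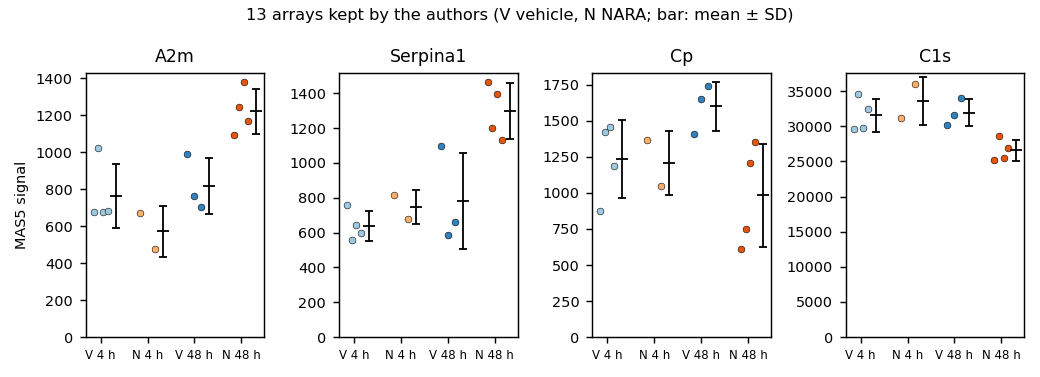
Signal of A2m, Serpina1, Cp (1368418_a_at) and C1s in the 13 arrays the authors kept, with points for single arrays and a bar for the mean ± SD of each group (V vehicle, N NARA; 4, 2, 3 and 4 arrays from left to right). A2m is at 1095 to 1381 in NARA 48 h against 475 and 671 in NARA 4 h, and Serpina1 is at 1129 to 1467 in NARA 48 h against 586 to 1096 in vehicle 48 h.

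The other members of smallest p did not pass. Fga (1371258_at) read 38.6 and 244 in NARA 4 h and 495, 344, 555 and 515 in vehicle 4 h, a difference of -1.69 ± 0.42 (SE) with an adjusted p of 0.514 in limma. The 2 NARA arrays differed widely. With replicate 2 alone (without NARA 4 h replicate 3), and its spread taken from the other groups, the difference was -2.55 with an adjusted p of 0.0474 in limma. Its change with time in NARA was 1.73 (adjusted p from limma 0.107, and 2.60 with 0.0229 without that array). The other Fga probe set read 12.4 to 174 in the 14 arrays, too dim to give a direction. C3 at 4 h was at -0.80 (adjusted p 0.792), F2 at 0.75 (1.00). With time in vehicle, Itih1 was at 0.65 (0.605), Itih4 at 0.42 (0.625) and F3 at 0.19 (0.700). The difference of the NARA effects was -0.84 (0.509) for Itih1 and 2.38 (0.184) for Fga, all from limma.

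Genes that act on these proteins or belong to the same pathways were read at 48 h of NARA. There 2.8% of all probe sets were called, and 1 of 13 genes of unrelated tissues (Cga) was. A gene counted as called where any of its probe sets was. Counts of genes and the share of probe sets are thus in unlike units. Of 10 genes tested among receptors and cofactors of clotting, 1 was higher and 1 lower. Thbd (thrombomodulin), which turns thrombin toward activating protein C, was 1.31 ± 0.15 (SE) higher on 1 probe set (adjusted p = 0.000681 in limma), and 0.70 (0.481) on another. Its change differed between 48 h and 4 h by 1.44 (adjusted p = 0.0391 in limma). Gas6, a vitamin K-dependent ligand of TAM receptors, was lower on 1 probe set (-0.52, 0.0192) and not called on the others (0.45 with 0.169, and 0.06 with 0.880).

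Of 8 complement regulators and receptors tested, Cd55, which takes apart the C3 convertase, was higher by 0.96 ± 0.11 (SE), with an adjusted p of 0.000695 in limma. Of 9 genes of lipoprotein handling, Vldlr, a receptor for Apoe-bearing particles, was higher by 0.66 ± 0.10 (SE), with 0.00406. Of 9 genes of fibrinolysis, Plau (urokinase), which activates plasminogen, was higher by 0.89 ± 0.12 (SE), with 0.00263. Of 6 genes of iron and haem handling 0 were called by limma, with 1 at an unadjusted p under 0.05. Of 33 further plasma protein genes, 1 was called, Masp1, a protease of the lectin route of complement, which was lower on 1 probe set, at -1.20 ± 0.14 (SE) with 0.000662, and read -0.35 (0.591) on another.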

How the data were processed

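Per the labels' protocols, biotin-labelled RNA from each of 16 samples was put on 1 Affymetrix Rat Genome 230 2.0 array, from 5 µg of total RNA. Trizol is named for the extraction there, while the series' design text names a column kit. The deposited values are linear intensity, as MAS5 signals per the submitters' processing notes, which the authors scaled to a trimmed mean of 1500 according to the series' design text. The number of arrays limits the precision.

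Of 31099 probe sets, 57 controls were set aside. The platform annotation gave 20826 of the rest 1 symbol, 436 several and 9780 none. Signals were taken as log2(signal + 50), and lmFit and eBayes of limma 3.58.1 (R 4.3.3) fitted group means to the 13 arrays the authors kept, with 9 residual and 2.4 prior degrees of freedom, for probe sets with a mean of at least 300. Two-sided p-values were adjusted over all probe sets tested. SE is limma's standard error, and ± SD is over arrays. The fit was tested on simulated data.

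The members, lists and tests were chosen with earlier results of these data known. Named with values were members at 300 or more in each of the 14 arrays, the 10 with the greatest difference in the 2 arrays, those called or of the 3 smallest p in a comparison, and at least 2 of each role. Hamp, Hbb, Slc4a1, Ahsp, Myod1, Cps1, Hnf4a and Col1a1 were named after their values were seen. The alternatives were other arrays in the fit, offsets, signal minimums, scalings, prior, levels, probe sets, a replicate block and the removal of 1 array at a time.

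Replicate numbers are shared across groups, and samples of the same number did not deviate together (correlations of -0.04 to 0.04 over 16 pairs), so no pairing was used.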

Additional observations from a re-analysis of the deposited data

Results flagged for a closer look

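The 10 members at 300 or more in each of the 14 arrays gave 40 groups of 4 arrays, with the 3 arrays left out by the authors among them. Each group was examined for an array far from the others, and 2 stood out. Chance gives about 1 in 20, so 2 of 40 is about what chance gives. Where NARA 4 h replicates 1 and 4 stood apart together, a check for 1 far array could not flag them. F3 read 7206 in vehicle 48 h replicate 4, while the other 3 arrays of the group lay between 6300 and 6416. A2m read 1025 in vehicle 4 h replicate 2, against 675 to 681 in the other 3.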

How the results depend on the processing

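Of the 45 genes, 41 to 42 were higher in both arrays under the alternatives run for that count. The median difference lay between 8.03 (offset 200) and 9.03 (offset 1). Single genes moved more: Fga was at 12.17 with offset 1 and 9.25 with offset 200, and by probe set Fgb was at 10.19, 2.17 or 0.61 and Apob at 10.05 or 2.24. The number of genes at the level in each of the 14 arrays was 19 at 100, 5 at 500, 2 at 1000 and 2 at 2000, and 23 when the mean of the 14 had to reach 300. Member calls for NARA at 4 h ranged from 0 to 1 on leaving out 1 array, for NARA at 48 h from 0 to 1, and for time in NARA from 0 to 1. With a trended and robust prior NARA at 48 h gave 1 call, Serpina1 (adjusted p 0.0469 in limma). Time in NARA gave 0 calls with all 16 arrays, with only the groups compared, without a signal minimum, with one of 1000 (3 members tested) and with median centring. A2m was called there in 8 of 23 alternatives, with changes of 0.54 to 1.27 and adjusted p from limma between 0.0216 and 0.288.

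With all 16 arrays, which puts the 2 arrays back into NARA 4 h, signs turned: Fga to 2.23 and C3 to 4.12 for NARA at 4 h, Fga to -2.19 and Serpina1 to -3.20 for time in NARA, and Fga to -1.75 for the difference of the NARA effects. In the 13 arrays kept by the authors, Fga on 1371258_at was at 1.73 for time in NARA and 2.38 for that difference. The other Fga probe set, too dim to give a direction, gave -0.14 and -0.19 in the same 13 arrays. Why the 2 probe sets differ was not tested. With the replicate block the member calls were 0 and 0 for NARA at 4 h and 48 h, 0 and 1 for time in vehicle and in NARA and 0 for the difference, and A2m was at 1.17 (adjusted p 0.042 in limma). The block lowered the calls over all probe sets for NARA at 48 h from 586 to 312. Over all results, 444 alternative values kept their direction and side of the threshold or stayed close, 24 moved, 7 reversed, 15 lost a call and 4 gained one. Probe sets near the level of the unrelated genes carry little information on change.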
